A study of Homo sapiens with 18 samples.

Results

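B21 is a clonal line of HEK cells, an established human embryonic kidney line, that is labelled as an ATXN1L knockout, and its 3 arrays were compared with the 9 arrays of wild-type lines. These 12 arrays are 12 of the 18 in the series and were chosen by their labels. The wild-type arrays came from 3 lines with 3 cultures each: the unedited parental HEK cells, and N4 and N8, which went through CRISPR and kept ATXN1L. B21 was made with CRISPR/Cas9, selected in puromycin and grown from a single colony, so it stands for 1 clone. The other knockout-labelled lines, A10 and A30, with 3 arrays each, served as a direct comparison for B21. All lines were grown in DMEM with serum, and the labels name no further treatment. Tested genes were split into 130 on chromosome 13 from 35 Mb to the end (hg38) and the other 9556. That stretch was singled out because its genes were lower in B21, so its own difference from the wild type is described and not tested.

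Capicua, encoded by CIC, is a DNA-binding repressor that sits at the control regions of its target genes and keeps them low until growth factor signalling through the MAPK cascade removes it. ATXN1 and the related ATXN1L bind capicua and keep the protein stable. The best known targets are the ETS transcription factors ETV1, ETV4 and ETV5 and feedback inhibitors of the MAPK cascade such as the Sprouty and DUSP proteins. The comparison asks which of these and of all other genes differed in the B21 clone.

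The promoters of 4 genes that rose are printed here from RefSeq as the 250 bases before the start of the gene (GRCh38.p14). CCN2 and ANKRD1 are textbook targets of TEAD factors, CPA4 was the largest rise, and ETV1 is a capicua target. Capitals mark GGAATG, the core that TEAD factors recognise, in the first 3, and in ETV1 the octamer TGAATGGA, a sequence that capicua binds. CCN2 lies at chr6:131951373-131951622 on the minus strand, ANKRD1 at chr10:90921088-90921337 on the minus strand, CPA4 at chr7:130292911-130293160 on the plus strand and ETV1 at chr7:13991426-13991675 on the minus strand.
CCN2: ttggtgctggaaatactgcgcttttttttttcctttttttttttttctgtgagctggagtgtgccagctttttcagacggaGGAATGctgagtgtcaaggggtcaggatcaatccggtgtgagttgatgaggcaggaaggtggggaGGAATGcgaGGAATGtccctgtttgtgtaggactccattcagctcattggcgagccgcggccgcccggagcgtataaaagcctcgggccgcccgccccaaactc
ANKRD1: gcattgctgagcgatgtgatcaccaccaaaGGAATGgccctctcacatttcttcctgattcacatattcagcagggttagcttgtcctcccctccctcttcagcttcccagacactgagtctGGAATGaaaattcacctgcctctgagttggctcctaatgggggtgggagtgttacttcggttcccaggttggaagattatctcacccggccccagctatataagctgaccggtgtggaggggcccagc
CPA4: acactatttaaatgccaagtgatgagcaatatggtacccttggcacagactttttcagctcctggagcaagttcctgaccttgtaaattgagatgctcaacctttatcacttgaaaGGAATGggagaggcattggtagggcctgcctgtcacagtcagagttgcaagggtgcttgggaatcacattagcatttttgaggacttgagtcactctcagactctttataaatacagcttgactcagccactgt
ETV1: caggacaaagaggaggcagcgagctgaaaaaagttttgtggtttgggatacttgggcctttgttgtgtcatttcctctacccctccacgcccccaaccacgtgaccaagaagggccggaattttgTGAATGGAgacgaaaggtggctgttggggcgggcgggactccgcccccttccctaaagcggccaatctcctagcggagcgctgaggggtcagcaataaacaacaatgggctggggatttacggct
In CCN2 the copies of GGAATG begin 169, 104 and 95 bases before the start, in ANKRD1 220 and 128 bases before it, and in CPA4 134 bases before it. The octamer begins 125 bases before the start of 1 of the 6 ETV1 promoters in the table. The search covered both strands, and 11.9% of all 35116 promoter windows of that length held GGAATG. A match says only that these letters are present.

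The signal is the log2 value that the authors deposited for each probe set, so a difference of 1 is a doubling, and levels of different genes cannot be set against each other. The array medians ran from 5.09 to 5.18, and B21 arrays correlated at r = 0.989 to 0.993 with each other and 0.965 to 0.981 with wild-type arrays, across genes, which are not independent replicates. Of 9686 tested genes, 1551 (16.0%) passed limma's test at an adjusted p under 0.05, 854 (8.82%) higher and 697 (7.20%) lower in B21. Outside the chromosome 13 stretch 1482 of 9556 passed (15.5%), 851 higher (8.91%) and 631 lower (6.60%). The median difference over all tested genes was 0.01. For 1024 genes (10.6%) all 3 B21 arrays lay outside the range of the 9 wild-type arrays, 566 above it (5.84%) and 458 below it (4.73%). Only 51 genes (0.527%) both passed and differed by at least 1, 34 higher and 17 lower. This fit leaves out the replicate number, and with that number as a block 2210 genes passed, 1228 higher and 982 lower. Leaving out replicate 2 of B21 gave 863 calls, and leaving out replicate 3 gave 824. With each neighbourhood of 41 genes along the chromosomes centred, 971 passed, 498 higher and 473 lower. Centring removes shifts that neighbouring genes share.

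These tests measure the spread between cultures of a clone and not between clones. With each line reduced to its mean, 1 B21 value stood against 3 wild-type values, and TNC was the 1 gene that passed (adjusted p = 0.0194). On line means 793 genes had an unadjusted p under 0.05, and 106 of the 107 called genes that are named lost their call. In bulk RNA, fewer cells of a kind and less RNA per cell cannot be told apart.

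**Figure D1:**
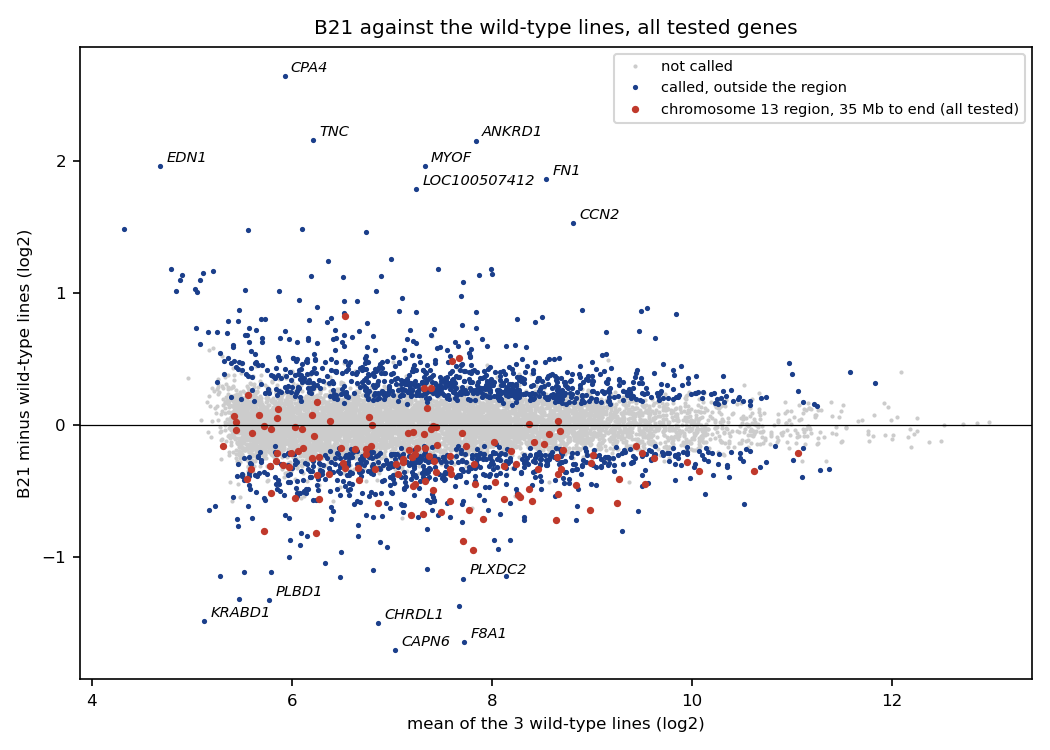
Difference between B21 and the mean of the 3 wild-type lines (log2, y axis) against the mean wild-type signal (log2, x axis) for each of the 9686 tested genes. Grey points did not pass, blue points passed outside the chromosome 13 stretch, and red points are its 130 tested genes. CPA4 and TNC stand highest, at 2.64 and 2.16, and most red points lie below 0.

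The ATXN1L signal was higher in B21. It was 7.43, 7.41 and 7.61 in the 3 B21 arrays and ran from 7.05 through a median of 7.16 to 7.29 in the wild-type arrays. The difference was 0.32 ± 0.07 (SE, limma adjusted p = 0.00312), and all 3 B21 arrays lay above every wild-type array. A10 and A30 were also above the wild type for ATXN1L, at 0.20 and 0.22. B21 differed from those lines by 0.11 ± 0.07, which did not pass (adjusted p = 0.409). The labels do not say which bases of ATXN1L were cut, so its signal is no check of the genotype. ATXN1 read 7.19, 7.22 and 7.12 in B21 and 6.59, 6.83 and 7.10 as the lowest, median and highest wild-type array. Its difference of 0.31 ± 0.11 did not pass (adjusted p = 0.0737) but did with the replicate number as a block (adjusted p = 0.0188). CIC itself differed by −0.08 ± 0.06 (adjusted p = 0.419). Among the 10 tested genes of a list of capicua partners and co-repressors, ATXN1L was higher, SIN3A (−0.21 ± 0.05, adjusted p = 0.00744) and HDAC1 (−0.23 ± 0.06, adjusted p = 0.0124) were lower, and 7 did not pass. Over all tested genes 8.82% were higher and 7.20% lower. The SIN3A call was lost without replicate 2 of B21 (adjusted p = 0.0508), and the HDAC1 call without replicate 2 (0.0850) or 3 (0.0806). SIN3A stood at −0.10 (adjusted p = 0.329) against N4 alone and −0.12 (adjusted p = 0.158) after centring on neighbouring genes. HDAC1 stood at −0.14 (adjusted p = 0.231) against N8 alone and −0.15 (adjusted p = 0.120) after that centring.

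Capicua target genes were higher in B21. Of the 11 tested of 19 listed, 6 rose and none fell at an adjusted p under 0.05 (8.82% of all genes rose), all 11 differences were above 0, and the median was 0.58 against 0.01 over all tested genes. The same list had medians of 0.21 in A10 and 0.46 in A30 against the same wild-type arrays. ETV5, an ETS activator, read 5.78, 6.20 and 6.20 in B21 against 4.62, 4.89 and 5.54 (lowest, median and highest) in the wild type. It rose by 1.01 ± 0.18 (adjusted p = 0.00141), with all 9 wild-type arrays below the filter value of 5.6. ETV1 read 6.20, 6.37 and 6.45 against 4.95, 5.6 and 5.87, a rise of 0.87 ± 0.16 (adjusted p = 0.00169). ETV4 read 6.43, 7.20 and 7.03 against 5.37, 5.67 and 6.66, and its lowest B21 array overlapped the wild type. It rose by 1.01 ± 0.22 (adjusted p = 0.00464), but not against N8 alone (0.67, adjusted p = 0.109).

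Among the MAPK phosphatases of that list, DUSP5 read 5.97, 6.38 and 5.83 in B21 against 4.29, 5.10 and 5.59, a rise of 1.03 ± 0.24 (adjusted p = 0.00744). DUSP4 read 6.53, 7.18 and 6.70 against 5.92, 6.13 and 6.46, a rise of 0.64 ± 0.15 (adjusted p = 0.00643). Neither range overlapped the wild type, and both calls were lost without replicate 2 of B21 (DUSP5 0.87, adjusted p = 0.0656, and DUSP4 0.45, adjusted p = 0.0768). The Sprouty genes encode feedback inhibitors of receptor signalling. SPRY4 read 5.39, 6.05 and 5.95 against 4.65, 5.14 and 5.88, and its difference of 0.58 ± 0.23 did not pass (adjusted p = 0.0912) except with the replicate number as a block (adjusted p = 0.0125). SPRY2, which lies in the lowered chromosome 13 stretch, differed by 0.28 ± 0.13 (adjusted p = 0.185, and 0.0336 with the block). The lowest value of the 3 B21 arrays was in replicate 1 for ETV1, ETV4, ETV5, DUSP4, CCND1, CCND2, SPRY2, SPRY4 and GPR3. For DUSP5 and SHC3 the lowest value was in replicate 3.

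Within this list the D-type cyclin genes CCND1 and CCND2, which drive entry into the cell cycle, differed from A10 and A30. CCND1 read 8.60, 8.85 and 8.94 in B21 against 8.17, 8.36 and 8.49 in the wild type, a rise of 0.45 ± 0.08 (adjusted p = 0.000684). Against A10 and A30 the difference was 0.40 ± 0.08 (adjusted p = 0.00569), and those lines were at 0.04 and 0.07 relative to the wild type. CCND2 differed from the wild type by 0.06 ± 0.06 (adjusted p = 0.546) and was 0.35 ± 0.06 above A10 and A30 (adjusted p = 0.00322). GPR3 (0.09) and SHC3 (0.01) did not pass either comparison. The other CIC targets, the ETV, DUSP and Sprouty genes, did not pass against A10 and A30, with differences of −0.05 (SPRY2) to 0.52 (DUSP5). That comparison uses the mean of both lines. Relative to the wild type, DUSP5 stood at 0.04 in A10 and 0.98 in A30, DUSP4 at 0.07 and 0.57, and ETV5 at 0.79 and 0.99.

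**Figure D2:**
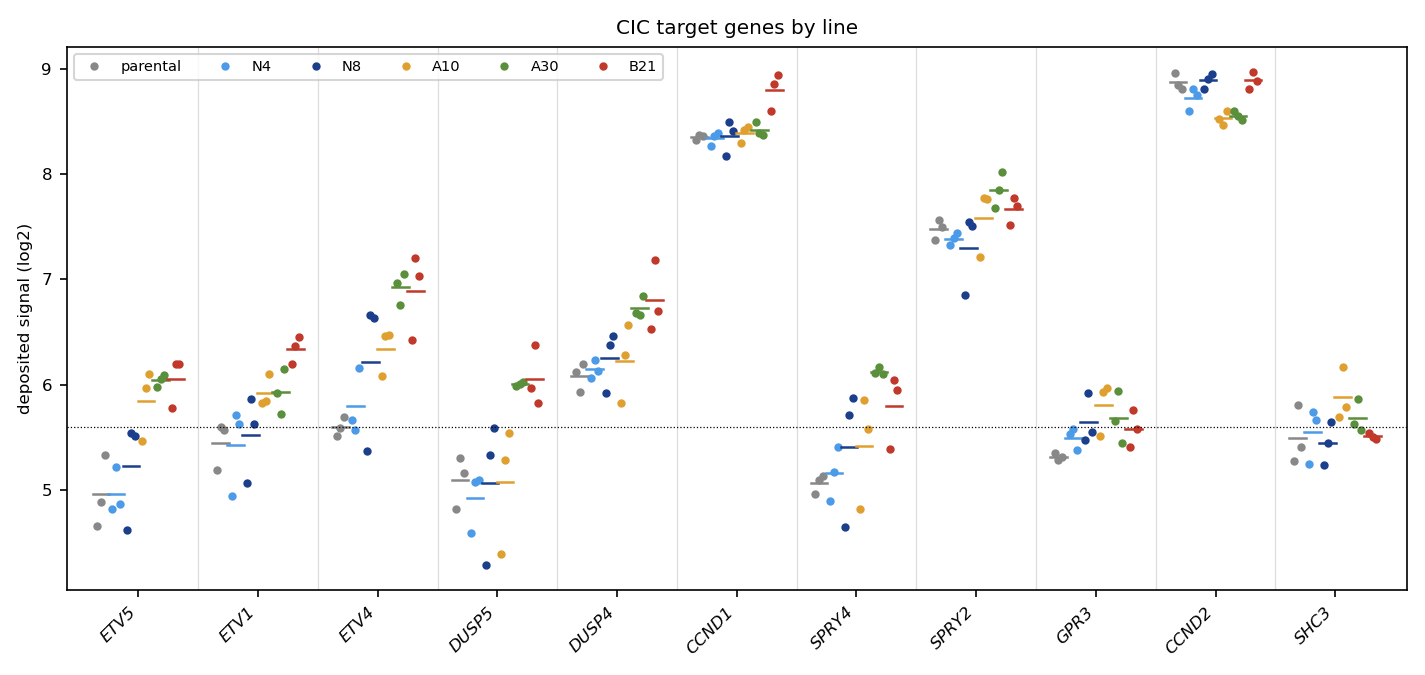
Deposited signal (log2, y axis) of the 11 tested capicua target genes (x axis) in every array of the 6 lines, with points for arrays, bars for line means and a dotted line at the filter value of 5.6. All 3 B21 points of ETV5, ETV1, DUSP5, DUSP4 and CCND1 lie above the wild-type points, and for CCND1 the A10 and A30 means lie 0.04 and 0.07 from the wild type.

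The 12 largest rises described next are those outside the chromosome 13 stretch whose 3 B21 arrays all lay above every wild-type array. ANKRD1, which rose by 2.15 but overlapped the wild type, is given further on with its pathway. The 12 were led by genes for secreted and matrix proteins. CPA4, a secreted carboxypeptidase, read 8.24, 8.84 and 8.63 in B21 against 5.11, 5.70 and 6.90 in the wild type. It rose by 2.64 ± 0.21, a 6.24-fold difference (adjusted p = 4.09e-07). TNC, which encodes the matrix glycoprotein tenascin C, read 8.52, 8.23 and 8.35 against 6.01, 6.19 and 6.62, a rise of 2.16 ± 0.08 or 4.46-fold (adjusted p = 5.35e-11). In both genes the lowest B21 array lay well above the highest wild-type array. FN1, fibronectin, read 10.57, 10.27 and 10.37 against 8.06, 8.40 and 9.40, a rise of 1.86 ± 0.20 (adjusted p = 8.76e-06). THBS1, thrombospondin, read 7.30, 7.69 and 7.74 against 5.70, 6.02 and 6.86, a rise of 1.48 ± 0.19 (adjusted p = 6.37e-05). MMP13, a collagenase, read 5.84, 5.91 and 5.65 against 3.84, 4.23 and 5.06, with every wild-type array below the filter value. Its difference was 1.48, but it entered the test only because B21 was high, so it had to differ and no test is given.

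Signalling genes and a membrane protein made up much of the rest. EDN1, the precursor of endothelin, read 6.27, 6.74 and 6.92 in B21 against 4.17, 4.67 and 5.22, all below the filter value in the wild type, and rose by 1.96 ± 0.19 (adjusted p = 3.46e-06). MYOF, myoferlin, a membrane repair protein, read 8.94, 9.45 and 9.47 against 6.70, 7.21 and 8.08 and rose by 1.96 ± 0.19 (adjusted p = 3.46e-06). BMP2, a bone morphogenetic protein, read 8.23, 8.22 and 8.29 against 6.29, 6.81 and 7.76, a rise of 1.26 ± 0.17 (adjusted p = 7.25e-05). Against N8 alone, its highest wild-type line, BMP2 did not pass (0.58, adjusted p = 0.0642). CCN2, a matricellular protein gene, read 10.09, 10.49 and 10.44 against 7.58, 8.79 and 10.07 and rose by 1.52 ± 0.41 (adjusted p = 0.0164). Its call was lost without replicate 2 (adjusted p = 0.0784) or 3 of B21 (0.0764) and against N8 alone (1.00, adjusted p = 0.200). PAMR1 (1.47 ± 0.10), the long non-coding LOC100507412 (1.79 ± 0.12) and CCBE1 (1.46 ± 0.09), which encodes a secreted factor of lymphatic growth, completed the set. CCBE1 lies on chromosome 18, where 56 of 144 tested genes were higher and 5 lower in B21 (8.82% and 7.20% of all tested genes). The median difference on that chromosome was 0.17 in B21, 0.22 in A30 and −0.004 in A10. The part of that shift in the CCBE1 value was not tested. Of the 12 genes, N8 was the highest of the wild-type lines in 10.

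**Figure D3:**
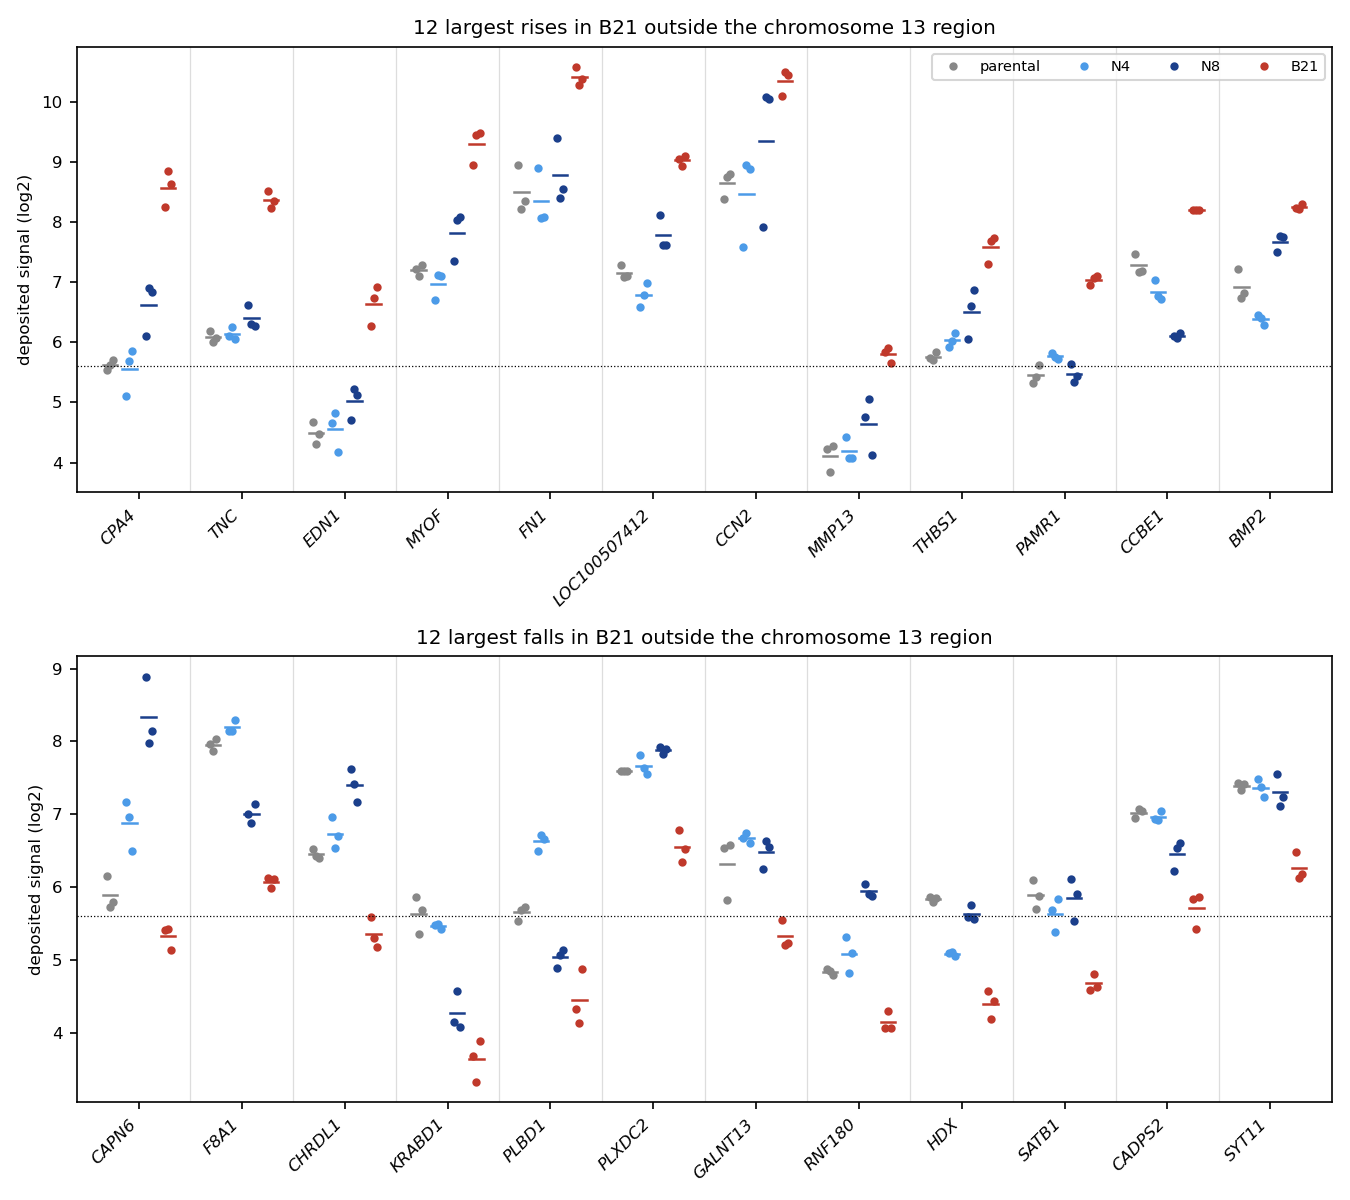
Deposited signal (log2, y axis) of the 12 largest rises (top) and 12 largest falls (bottom) outside the chromosome 13 stretch among genes without overlap between B21 and wild-type arrays, in each array of the parental cells, N4, N8 and B21. Points are arrays, bars are line means, and the dotted line is the filter value of 5.6. CPA4, TNC and EDN1 show a gap between B21 and all wild-type arrays, whereas the N8 points of CCN2 (up to 10.07) nearly reach B21.

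Several of these genes also differed between B21 and the mean of A10 and A30, a mean that can hide 1 line. CPA4 was 2.05 ± 0.22 higher in B21 than in those lines (adjusted p = 3.21e-05), EDN1 1.22 ± 0.20 (adjusted p = 0.00163), MYOF 1.15 ± 0.20 (adjusted p = 0.00250) and TNC 1.06 ± 0.09 (adjusted p = 4.04e-06). Relative to the wild type, CPA4 stood at 0.43 in A10 and 0.76 in A30, TNC at 0.40 and 1.80, EDN1 at 0.21 and 1.26, and MYOF at 0.15 and 1.47. LOC100507412 was 2.38 ± 0.13 higher in B21 (adjusted p = 8.58e-09), with A10 at −0.71 and A30 at −0.47 against the wild type. FN1 (0.82), PAMR1 (0.69) and CCBE1 (0.72) passed as well, with A30 near B21 and A10 lower. The A10, A30 and B21 means were 9.04, 10.12 and 10.40 for FN1, 5.42, 7.27 and 7.04 for PAMR1, where A30 was above B21, and 6.96, 7.98 and 8.20 for CCBE1. For MMP13 they were 4.16, 5.68 and 5.80. CCN2 (0.78 ± 0.43, adjusted p = 0.315), THBS1 (0.64 ± 0.20, adjusted p = 0.0631) and BMP2 (0.49 ± 0.18, adjusted p = 0.10) did not. Over all tested genes 767 (7.92%) passed between B21 and the other knockout-labelled lines, 506 higher (5.22%) and 261 lower (2.69%). Outside the chromosome 13 stretch 714 passed (7.47%), 505 higher (5.28%) and 209 lower (2.19%). With the replicate block 1253 passed, and without replicate 2 or 3 of B21 340 and 332.

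The 12 largest falls included surface proteins, synaptic proteins and a chromatin organiser. All 12 were also below the wild-type mean in A30, and 11 of them in A10. Between B21 and those lines 4 passed in either direction (7.92% of all tested genes did). CAPN6, which encodes a calpain-family protein without protease activity, read 5.41, 5.43 and 5.14 in B21 against 5.72, 6.96 and 8.89 in the wild type. It fell by 1.71 ± 0.17 (adjusted p = 3.34e-06), but the wild-type lines differed widely, and against the parental cells alone the difference was −0.56 (adjusted p = 0.0802). CHRDL1, a secreted antagonist of bone morphogenetic proteins, read 5.59, 5.30 and 5.18 against 6.40, 6.70 and 7.62, a fall with a difference of −1.51 ± 0.11 (adjusted p = 1.67e-07). A10 and A30 stood at −1.61 and −1.42 for CHRDL1, and B21 differed from them by 0.01 ± 0.12 (adjusted p = 0.977). PLXDC2, a plexin-domain surface protein gene, read 6.79, 6.34 and 6.52 against 7.55, 7.63 and 7.93, a difference of −1.17 ± 0.22 (adjusted p = 0.00166). A10 and A30 were lower still, at −2.61 and −2.85, so that B21 was 1.56 ± 0.23 above them (adjusted p = 0.000652). SYT11, a synaptotagmin of vesicle traffic, read 6.48, 6.12 and 6.18 against 7.11, 7.37 and 7.55, a difference of −1.09 ± 0.10 (adjusted p = 1.23e-06). It was −0.97 ± 0.10 below A10 and A30 (adjusted p = 2.25e-05), which stood at −0.06 and −0.17 from the wild type.

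GALNT13, a glycosyltransferase of mucin-type sugars, differed by −1.16 ± 0.21, SATB1, a chromatin organiser, by −1.12 ± 0.12, HDX, a homeobox gene, by −1.12 ± 0.09, and RNF180, a ubiquitin ligase, by −1.14 ± 0.13. For SATB1 the B21 arrays read 4.59, 4.81 and 4.63 against 5.39, 5.83 and 6.11 in the wild type, without overlap. HDX was also below A10 and A30, by −0.64 ± 0.10 (adjusted p = 0.000906). RNF180 was −0.94 ± 0.14 below their mean (adjusted p = 0.000639), with means of 4.30 in A30, close to the 4.14 in B21, and 5.86 in A10. CADPS2, which primes secretory vesicles, differed by −1.10 ± 0.26 and did not pass without replicate 2 of B21 (−0.96, adjusted p = 0.0620). A10 and A30 stood at −1.36 and −1.61 for CADPS2 and at −1.13 and −2.12 for GALNT13. Neither gene passed between B21 and those lines (adjusted p = 0.455 and 0.224). PLBD1 (−1.33 ± 0.20), KRABD1 (−1.49 ± 0.29), F8A1 (−1.65 ± 0.26) and CADPS2 did not pass against N8 alone. F8A1 has near-identical copies, so its value is uncertain as to the copy.

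Targets of the YAP and SRF transcription programmes, which govern contractile and matricellular genes, were mostly higher. Of 14 tested of 22 listed, 7 rose (8.82% of all genes did) and 1 fell, with a median of 0.29. ANKRD1, a stress-induced ankyrin repeat gene, read 9.73, 10.09 and 10.15 in B21 against 6.44, 7.36 and 9.85 and rose by 2.15 ± 0.43 (adjusted p = 0.00251). Its B21 range overlapped N8, against which alone it did not pass (0.79, adjusted p = 0.350). CNN2, an actin-binding calponin, rose by 0.98 ± 0.17 (adjusted p = 0.000769) and CRIM1 by 0.78 ± 0.11 (adjusted p = 0.000161), and both were above A10 and A30, by 0.64 ± 0.18 (adjusted p = 0.0342) and 0.56 ± 0.12 (adjusted p = 0.00780). TEAD1, the DNA-binding partner of YAP, rose by 0.34 ± 0.06 (adjusted p = 0.00163), but by 0.16 (adjusted p = 0.123) after centring on neighbouring genes. It lies in a run of chromosome 11 genes, from DENND2B to ANO5, whose median was 0.18 in B21, 0.00 in A10 and 0.22 in A30, and the part of that run in its value was not tested. TPM1, a tropomyosin, rose by 0.38 ± 0.10 (adjusted p = 0.0124), with the call lost without replicate 2 (adjusted p = 0.0656) or 3 of B21 (0.0733). It stood at 0.11 (adjusted p = 0.581) against N8 alone and at 0.26 (adjusted p = 0.138) with all its probe sets averaged. The 1 fall was AXL, a receptor kinase, at −0.27 ± 0.08 (adjusted p = 0.0361). In the promoter table, 6 of the 11 listed genes with an entry held GGAATG, CCN2 and ANKRD1 with the copies printed above, as did 5 of the 9 matched among the 12 largest rises and 1 of the 9 matched among the 12 largest falls. Over all 27305 genes in the table the share was 14.3%. The 4 octamers TGAATGAA, TGAATGGA, TCAATGAA and TCAATGGA were held by 3.92% of genes and by ETV1 alone of the 5 matched capicua targets. CCN2 among the 9 matched rises, on the strand not printed, and GALNT13 among the 9 matched falls held an octamer too (11.1% each).

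Early-response genes of the MAPK cascade were divided. Of 13 tested of 16 listed, 7 rose and 1 fell (8.82% and 7.20% of all genes), with a median of 0.25. IER3, a survival factor gene, read 8.34, 8.82 and 8.76 in B21 against 7.08, 7.45 and 7.86 and rose by 1.18 ± 0.13 (adjusted p = 8.70e-06), also above A10 and A30 (0.71 ± 0.13, adjusted p = 0.00365). The AP-1 family members FOSL2 (0.49 ± 0.09), JUNB (0.29 ± 0.06) and ATF3 (0.47 ± 0.09) rose, although none of the 3 passed against N8 alone, nor JUNB after centring on neighbouring genes (0.18, adjusted p = 0.0754). MYC fell, with 7.72, 7.56 and 7.59 in B21 against 7.46, 8.48 and 8.67, a difference of −0.70 ± 0.18 (adjusted p = 0.0128). The B21 arrays lay within the wild-type range, and the call was lost without replicate 2 (adjusted p = 0.0668) or 3 of B21 (0.0638) and against N8 alone. It was also lost after centring on neighbouring genes (−0.51, adjusted p = 0.0883). A10 and A30 were lower still for MYC, at −0.95 and −1.70 from the wild type. B21 was 0.62 ± 0.19 above those lines, which did not pass (adjusted p = 0.055). EGR1, the classic immediate-early gene, differed by −0.70 ± 0.42 and did not pass (adjusted p = 0.286).

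**Figure D4:**
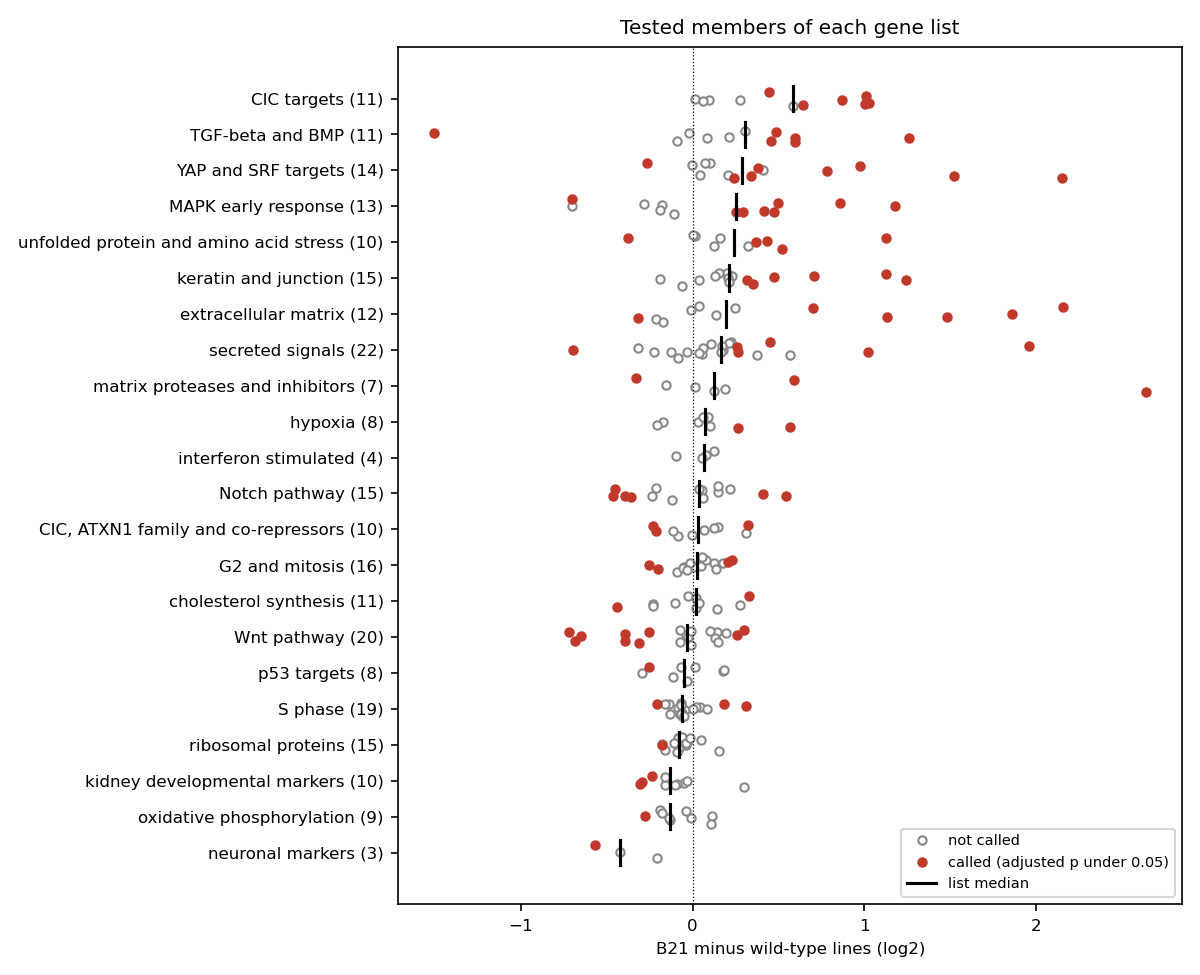
Difference between B21 and the mean of the 3 wild-type lines (log2, x axis) for the tested members of each gene list (y axis, number tested in parentheses), filled where the gene passed and open where it did not, with a bar at the list median. The capicua targets lie at or above 0 with a median of 0.58, and the Wnt pathway has 7 filled points below 0 and 2 above.

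Matrix, epithelial and secreted-factor genes gave further rises. Of 12 tested matrix genes of 29 listed, 5 rose, among them LUM, and 1 fell, with a median of 0.19 (8.82% and 7.20% of all tested genes). EDIL3, an integrin-binding matrix protein, read 9.0, 8.97 and 9.05 in B21 against 7.61, 7.87 and 8.16, a rise of 1.13 ± 0.09 (adjusted p = 2.48e-07). EDIL3 stood at 0.67 in A10 and 1.19 in A30, and B21 did not pass against those lines (0.20 ± 0.09, adjusted p = 0.207). LUM, lumican, read 5.93, 5.84 and 6.07 against 4.64, 5.23 and 5.72, and since it entered the test only through B21 it had to differ and no test is given. The 1 fall was LOX, a collagen cross-linking enzyme, at −0.32 ± 0.11 (adjusted p = 0.0483). Among 7 tested matrix proteases and inhibitors of 19 listed, read against 8.82% of all genes that rose and 7.20% that fell, CPA4 and TIMP3 (0.59 ± 0.05, adjusted p = 1.14e-06) rose and ADAM19 fell (−0.33 ± 0.08, adjusted p = 0.00645), though not against the parental cells or N4 alone. TIMP3 stood at 0.15 in A10 and 0.81 in A30 relative to the wild type. Of 15 tested keratin and junction genes of 24 listed, 6 rose (8.82% of all tested genes) and none fell, with a median of 0.21. KRT19, a keratin of simple epithelia, read 7.59, 7.67 and 7.56 against 6.02, 6.36 and 6.73 and rose by 1.24 ± 0.10 (adjusted p = 3.05e-07). CLDN1, a tight junction claudin, read 7.18, 7.43 and 7.34 against 5.94, 6.16 and 6.59 and rose by 1.12 ± 0.14 (adjusted p = 4.15e-05). CLDN1 was 0.77 ± 0.15 above A10 and A30 (adjusted p = 0.00398), which stood at 0.41 and 0.30 from the wild type. KRT19 and DSP, a desmosome plaque protein, were 0.81 ± 0.10 and 0.24 ± 0.05 above the mean of those lines but close to A30. The A10, A30 and B21 means were 6.05, 7.55 and 7.61 for KRT19 and 9.85, 10.30 and 10.31 for DSP. DSC2, a desmosomal cadherin on chromosome 18, rose by 0.48 ± 0.08 (adjusted p = 0.000774). The integrin list had no member with a symbol on these arrays.

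Markers of other cell types were dim or few. The 3 keratinocyte markers with a symbol (KRT5, KRT14 and IVL) reached at most 5.14 in any array and none passed the filter, and DCN, 1 of the 2 fibroblast markers with a symbol, reached at most 2.51. The mean over the keratinocyte markers was 4.34 to 4.58 in the B21 arrays and 4.10 to 4.45 in the wild type. The other fibroblast marker was LUM, described above, and the mean over both was 4.08 to 4.27 in B21 and 3.39 to 3.97 in the wild type. The mean over 4 endothelial markers was 5.00 to 5.15 in B21 against 4.62 to 5.07, and that over 3 leukocyte markers 5.33 to 5.41 against 5.07 to 5.46. CD68, a leukocyte marker of lysosomes, rose by 0.30 ± 0.09 (adjusted p = 0.0384), with the call lost without replicate 2 (adjusted p = 0.238) or 3 of B21 (0.159). The part of other cell types in the matrix and junction genes was not tested. Kidney developmental markers fell in 3 of 10 tested, against 7.20% of all genes (HOXD11, SALL1 and SIX2, by −0.24 to −0.31) and rose in none. WT1 read 7.63, 7.89 and 7.74 in B21 and differed by 0.30 ± 0.11 (adjusted p = 0.0677, and 0.0142 with the replicate block). The HOXD11 call was lost without replicate 3 of B21 (adjusted p = 0.0596) and against N4 alone (−0.18, adjusted p = 0.196), the SALL1 call without replicate 1 (0.0961), and the SIX2 call without any 1 of the 3 (0.0638 to 0.164) and without some of the single wild-type arrays. Of 3 tested neuronal markers, SYT1 fell (−0.57 ± 0.09, adjusted p = 0.000396), with A10 at 0.52 and A30 at −0.79, and none rose. Over all tested genes 7.20% fell and 8.82% rose.

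The developmental signalling pathways were mixed. Of 11 tested genes of TGF-beta and BMP signalling, 5 rose (8.82% of all tested genes) and 1 fell (7.20%), with a median of 0.31. Besides BMP2, the ligand gene BMP4 rose by 0.60 ± 0.12 (adjusted p = 0.00332) and BAMBI, a decoy receptor, by 0.60 ± 0.09 (adjusted p = 0.000319), and the 1 that fell was the antagonist CHRDL1. GREM1, another secreted antagonist, rose by 0.49 ± 0.12 (adjusted p = 0.0129), with the call lost without replicate 2 (adjusted p = 0.0707) or 3 of B21 (0.117) and its sign turned against N4 alone (−0.13). Of 20 tested Wnt genes of 32 listed, 7 fell (7.20% of all tested genes) and 2 rose (8.82%), with a median of −0.03. LGR5, a receptor that amplifies Wnt signals, read 8.20, 8.03 and 8.13 in B21 against 8.58, 8.86 and 9.06, a fall with a difference of −0.72 ± 0.08 (adjusted p = 1.07e-05). A10 and A30 were lower, at −0.90 and −1.47, and B21 was 0.46 ± 0.08 above them (adjusted p = 0.00295). LEF1, a nuclear effector, differed by −0.40 ± 0.07 (adjusted p = 0.000963), ROR2, a Wnt receptor, by −0.68 ± 0.11 (adjusted p = 0.000589) and FZD2 by −0.40 ± 0.08 (adjusted p = 0.00295). ROR2 did not pass against N8 alone (−0.24, adjusted p = 0.271). SFRP2, a secreted Wnt antagonist, differed by −0.65 ± 0.08 (adjusted p = 2.10e-05), and its sign turned against N8 alone (0.19).

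In the Notch pathway, where 8.82% and 7.20% of all tested genes rose and fell, 2 of 15 tested genes rose, the ligand JAG1 (0.41 ± 0.08, adjusted p = 0.00225) and the effector HEY2 (0.54 ± 0.05, adjusted p = 3.40e-06, with A10 at −0.08 and A30 at 0.68), and 4 fell, among them the receptor NOTCH3 and the effector HES4 (−0.36 ± 0.07, adjusted p = 0.00132). NOTCH3 differed by −0.47 ± 0.11 (adjusted p = 0.00853), which was lost without replicate 2 of B21 (adjusted p = 0.0825). Of 22 tested secreted signals, 5 rose and 1 fell (8.82% and 7.20% of all tested genes), with a median of 0.17. IGFBP3, which binds insulin-like growth factors, read 6.31, 6.76 and 6.60 against 5.19, 5.6 and 5.77 and rose by 1.02 ± 0.12 (adjusted p = 1.72e-05). It was 1.00 ± 0.12 above A10 and A30 (adjusted p = 0.000114). NRG1, an ERBB receptor ligand, read 6.11, 6.13 and 6.23, within the wild-type range of 5.16 to 6.47, and differed by 0.45 ± 0.12 (adjusted p = 0.0167). Against N8 alone the NRG1 difference was 0.01 (adjusted p = 0.966), and the call was lost without replicate 2 (adjusted p = 0.0594) or 3 of B21 (0.0918).

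Among the largest differences from the other knockout-labelled lines were genes with and without a difference from the wild type. PURPL, a long non-coding RNA induced by p53, was 1.23 ± 0.34 above A10 and A30 (adjusted p = 0.0360), at 9.22, 8.65 and 8.72 within the wild-type range of 7.77 to 9.43. A10 was at −1.77 and A30 at −0.32 against the wild type. AMBN, ameloblastin, was 1.22 ± 0.14 above A10 and A30 (adjusted p = 4.80e-05) and 0.65 ± 0.13 above the wild type, but at −0.01 against N4 alone. The zinc finger gene ZNF711 (−1.06 ± 0.21, adjusted p = 0.00436), SCARNA9L (−0.99 ± 0.13, adjusted p = 0.000154) and LINC00649 (−0.84 ± 0.13, adjusted p = 0.000811) were below A10 and A30. They were also below the wild type, ZNF711 by −0.94 ± 0.19 (adjusted p = 0.00314), SCARNA9L by −0.81 ± 0.12 (adjusted p = 0.000227) and LINC00649 by −0.69 ± 0.12 (adjusted p = 0.000980). For SCARNA9L and LINC00649 all 3 B21 arrays lay below every wild-type array. For LINC00649 A30 was also below the wild type, at −0.44, and A10 above it, at 0.74.

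On chromosome 13 from 35 Mb to the end, 240 genes had a symbol and 130 were tested, and the median difference of B21 was −0.25, with quartiles of −0.41 and −0.07. Of the 130, 112 (86.2%) were below 0, as were 47.9% of other tested genes. In the same fit 69 were called (53.1%), 66 lower (50.8%) and 3 higher (2.31%), and 53 were called against A10 and A30 (40.8%). These counts describe how the stretch was chosen, and the 53 also depend on the levels of A10 and A30. ABHD13, ARHGEF7, LAMP1 and PCID2 were among the 53 but were not called against the wild type (−0.02, −0.07, −0.13 and −0.23). In A10 they stood at 0.57, 0.58, 0.52 and 0.54. The median of each B21 array, relative to the wild-type mean, was −0.27, −0.27 and −0.22. The wild-type lines themselves were at 0.11 for the parental cells, 0.00 for N4 and −0.11 for N8, and A10 and A30 at 0.09 and −0.10. Against the parental cells alone the B21 median was −0.40 and against N8 alone −0.13. Without the filter on dim genes it was −0.13.

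The falls in the stretch were spread over genes of unlike function. POGLUT2, which adds glucose to secreted proteins, read 6.82, 6.80 and 6.97 in B21 against 7.66, 7.85 and 7.96 in the wild type, a difference of −0.95 ± 0.08. UGGT2, a glucosyltransferase of protein quality control, read 6.95, 6.63 and 6.90 against 7.38, 7.73 and 8.04, a difference of −0.88 ± 0.10. GPC6, a glypican of the cell surface, read 7.11, 7.26 and 7.22 against 7.70, 7.95 and 8.07, a difference of −0.71 ± 0.07. In all of these the B21 and wild-type arrays did not overlap. CLYBL, a mitochondrial enzyme gene, differed by −0.82 ± 0.20, HS6ST3, a heparan sulfate sulfotransferase, by −0.81 ± 0.15, and DZIP1, a ciliary protein gene, by −0.72 ± 0.06. CLYBL overlapped the wild type. A10 was above the wild-type mean for POGLUT2 (0.28), UGGT2 (0.35), GPC6 (0.10), CLYBL (0.20) and DZIP1 (0.16). HS6ST3, by contrast, stood at −0.92 in A10 and −0.76 in A30, and B21 differed from those lines by 0.03. Against N8 alone the HS6ST3 difference was −0.51. The tumour suppressor RB1 read 8.72, 8.64 and 8.62 against 9.09, 9.22 and 9.44 (−0.59 ± 0.05).

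The start of the lowered stretch was not sharp at 35 Mb. Just outside it, N4BP2L2 was at −0.23, N4BP2L2-IT2 at −0.26 and NBEA, whose start lies before 35 Mb, at −0.60. Just inside it, MAB21L1 was at 0.12, DCLK1 at −0.20 and CCDC169-SOHLH2 at −0.51, a readthrough gene whose signal cannot be told apart from that of its parts. SHISA2, elsewhere on chromosome 13 before the stretch, read 9.13, 9.16 and 9.21 against 7.47, 8.03 and 8.44, a rise of 1.18 ± 0.06 (adjusted p = 6.28e-10), with A30 at 1.21 and A10 at −0.16.

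Within the stretch 18 genes were above 0, most of them by little, and the 3 largest differences were those of MIR622, EFNB2 and IRS2. MIR622, a microRNA gene, read 7.14, 7.43 and 7.51 in B21 against 6.20, 6.42 and 6.97, a difference of 0.83 ± 0.16. Its mature sequence in RefSeq (chr13:90231242-90231262 on the plus strand, GRCh38.p14) is shown with its seed, bases 2 to 8, in capitals, because the array probe set carries the symbol of the gene and does not separate the mature form from its precursor.
hsa-miR-622: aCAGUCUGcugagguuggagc
EFNB2, an ephrin ligand, read 8.25, 8.13 and 8.15 against 7.13, 7.75 and 7.98 (0.50 ± 0.09), and IRS2, an insulin receptor substrate, read 8.0, 8.09 and 8.18 against 7.40, 7.57 and 7.79 (0.48 ± 0.06). All 3 lay above every wild-type array. A10 stood at 0.74 for EFNB2 and 1.00 for IRS2.

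**Figure D5:**
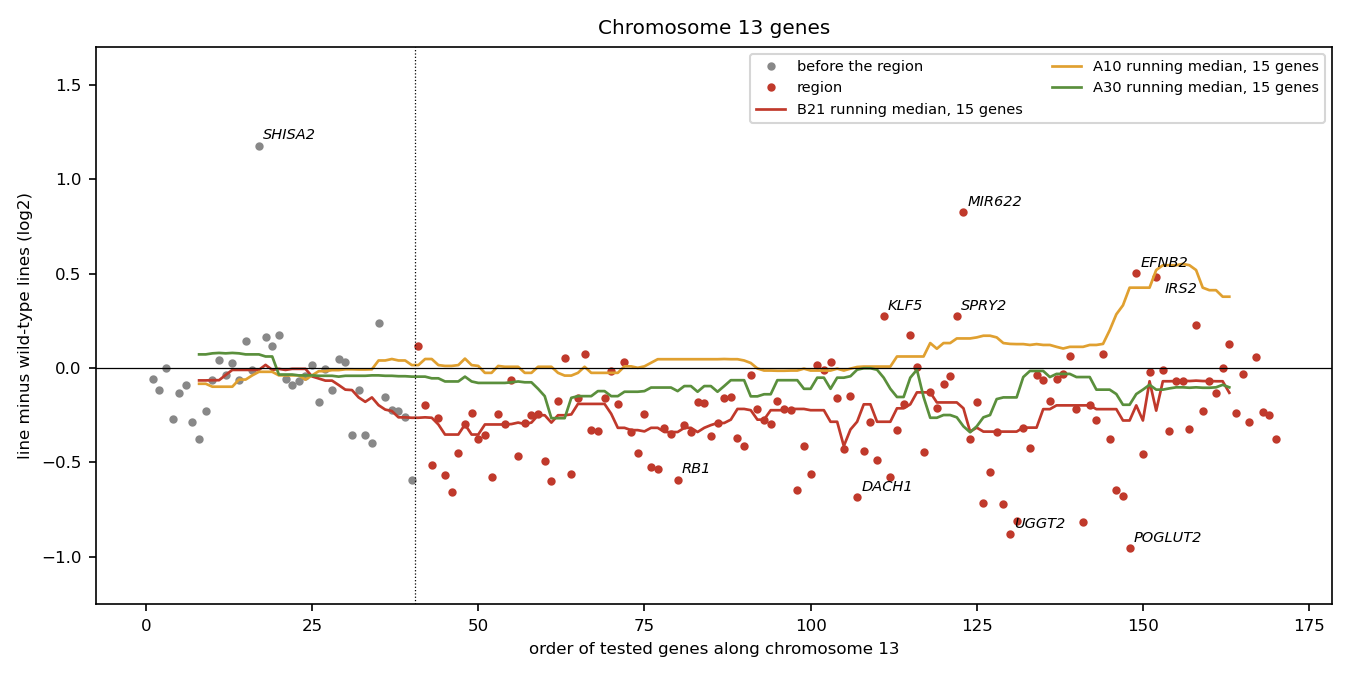
Difference of a line from the wild-type mean (log2, y axis) for the tested genes of chromosome 13 in their order along it (x axis, rank). Points are B21 values, grey before and red inside the stretch that starts at the dotted line, and lines are running medians over 15 genes for B21, A10 and A30. Most red points lie below 0, whereas MIR622 at 0.83 and SHISA2 at 1.18 stand above.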

How the data were processed

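Values of 18 Affymetrix arrays, 3 cultures per line, were used as the authors deposited them, on the log2 scale, and were made with Affymetrix Expression Console, per the submitters' processing notes (version and settings not given in the sources used here). Of 53617 probe sets, 16098 had 1 gene symbol and 37519 none, and 14884 genes were named. The probe set with the highest mean stood for a gene, and 9686 genes with at least 3 arrays above 5.6, the 40th percentile, were tested. Limma 3.58.1 (R 4.3.3) was fitted with line as group over all 18 arrays, with Benjamini-Hochberg adjustment over all tested genes, two-sided. Gene order came from RefSeq, which placed 14883 genes. B21 and same-numbered wild-type cultures deviated together (r = 0.125 to 0.499), so replicate numbers pair them. The main fit leaves this pairing out. Counts from a fit with the replicate number as a block are given beside it, and named genes whose call changed with the block are listed. Members and lists were chosen with earlier results of these data known. Named genes were ATXN1L, ATXN1 and CIC, the 12 largest rises and falls with all B21 arrays outside the wild-type range, the 6 largest each way against A10 and A30, up to 5 members of each list by p, all capicua targets, and the 6 largest falls, 3 largest rises and edge genes of the chromosome 13 stretch. AXL, LOX, RB1, SHISA2 and EGR1 were chosen after their values were seen. Precision rests on how many arrays there are. A total of 51 genes passed the filter only through B21, 12 of them called higher. The fit was tested on simulated data. Alternatives covered the filter, normalisation, probe set choice, variance model, reference lines, unit of replication, block, single arrays, neighbour centring and thresholds, and the fit of replicates 2 and 3 alone was added after seeing the data. Figures used matplotlib 3.10.9, pandas 2.3.3 and numpy 2.4.6.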

Additional observations from a re-analysis of the deposited data

Results flagged for a closer look

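A group of genes differed between B21 and the other knockout-labelled lines A10 and A30 in limma's direct test of that difference (adjusted p under 0.05), each value below being the B21 mean minus the mean of A10 and A30 (log2). That mean can hide opposite directions. A30 was beyond B21 for PAMR1 (7.27 against 7.04), HEY2 (8.45 against 8.32) and SYT1 (4.94 against 5.16), and KRT19, DSP, MMP13, TEAD1 and RNF180 were close to A30. The A10, A30 and B21 means of LINC00649 were 7.64, 6.47 and 6.21. MMP13 and LUM entered the test only through B21, so their values are listed as description and not as a test. Among secreted and matrix genes these were CPA4 (2.05), TNC (1.06), EDN1 (1.22), FN1 (0.82), MMP13 (0.88), PAMR1 (0.69), CCBE1 (0.72), LUM (0.79), IGFBP3 (1.00), NRG1 (0.68) and ADAM19 (−0.32). Among membrane, junction and cytoskeletal genes they were MYOF (1.15), KRT19 (0.81), CLDN1 (0.77), DSP (0.24), CRIM1 (0.56), CNN2 (0.64), VLDLR (0.54), PLXDC2 (1.56), SYT11 (−0.97) and SYT1 (−0.43). Among regulators of transcription, signalling and ubiquitin transfer they were IER3 (0.71), TEAD1 (0.23), HEY2 (0.24), RBPJ (0.26), SIN3A (−0.21), LGR5 (0.46), RNF180 (−0.94), HDX (−0.64) and ZNF711 (−1.06). Among cell cycle genes they were CCND1 (0.40), CCND2 (0.35), CCNE2 (−0.37), PLK1 (0.25) and BUB1 (0.24). The respiratory chain subunit COX5A was at −0.18. Non-coding and other genes were LOC100507412 (2.38), PURPL (1.23), SCARNA9L (−0.99), LINC00649 (−0.84) and AMBN (1.22). The chromosome 13 stretch was chosen because its genes were lower in B21, so its values are description and not a test. They were POGLUT2 (−0.82), UGGT2 (−0.80), DZIP1 (−0.67), GPC6 (−0.68), MIR622 (0.60), DCLK1 (−0.48) and TEX30 (−0.84). A group of 3 cultures is too small for a check for single outlying arrays, and the causes of these differences were not tested.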

How the results depend on the processing

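Of the 107 called genes named, 76 kept the call in every fit with 1 array left out, and 52 kept it in every other alternative except line means. Leaving out single arrays gave 824 to 1816 calls in all, 764 to 1744 outside the chromosome 13 stretch, 332 to 868 against A10 and A30, and a median of −0.29 to −0.24 in the stretch. For ATXN1 the difference was 0.28 to 0.35 in those fits, and it passed without N8 replicate 1, A10 replicate 1 or A10 replicate 2. With the replicate block, 2210 genes passed in all and 2132 outside the stretch, 1253 passed against A10 and A30, and ATXN1 stood at 0.31 (adjusted p = 0.0188). Among named genes the block also added calls for SPRY4, SPRY2, WT1, MAP2, N4BP2L2, N4BP2L2-IT2, TIMP2, NSDHL, RPS6, RPL19, COX7C, COX5A and UQCRC1 and took away none. ATXN1 also passed with only B21 and wild-type arrays (0.31, adjusted p = 0.0364) and with replicates 2 and 3 alone (0.39, adjusted p = 0.0167), which was added after seeing the data. On line means 1 gene passed in all and 1 outside the stretch, and ATXN1L did not pass (0.32, adjusted p = 0.498). That alternative has no counterpart for A10 and A30. Centring on neighbouring genes left 971, 937 and, against A10 and A30, 302 calls, and a stretch median of −0.00296 by construction. At an adjusted p under 0.01 the counts were 774, 721 and 300, and with a difference of at least 1 they were 51, 51 and 14. Against A10 alone 1271 passed. The stretch median was −0.13 without the filter, −0.40 against the parental cells, −0.13 against N8, −0.20 against N4 and N8, and −0.34 against the parental cells and N4. Signs turned against the parental cells alone for HMGCS1 (−0.02) and the capicua partner list median (−0.005), against N4 alone for AMBN (−0.01) and GREM1 (−0.13), and against N8 alone for SFRP2 (0.19), NRARP (0.14), BUB1 (−0.03), CD68 (−0.11) and the matrix protease list median (−0.18). The Wnt list median was 0.00833 against the parental cells and N8. The causes were not tested. Higher genes were 55.1% of calls as deposited, 50.3% after quantile normalisation and 50.8% after centring the arrays.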

Other observations

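Over all tested genes 8.82% rose and 7.20% fell, and some cell cycle genes passed in each direction. Of 19 tested S phase genes, RRM1 (0.18 ± 0.05), a ribonucleotide reductase subunit, and CCNE1 (0.31 ± 0.10), cyclin E, rose and CDT1 (−0.21 ± 0.07), a replication licensing factor, fell, with a list median of −0.06. After centring on neighbouring genes RRM1 stood at 0.01 and CCNE1 at 0.16. Each of these 3 calls was lost when replicate 2 of B21 was left out (adjusted p = 0.0638, 0.168 and 0.146 in limma). Of 16 tested genes of G2 and mitosis, PLK1 (0.21 ± 0.06) and BUB1 (0.23 ± 0.07) rose and KIF20A (−0.26 ± 0.06) and NUSAP1 (−0.20 ± 0.06) fell, and these calls were lost without that array too (adjusted p = 0.0927, 0.171, 0.0722 and 0.184). All of these except KIF20A were also lost without replicate 3 of B21. Among 10 tested genes of unfolded protein and amino acid stress, 4 rose and 1 fell, with a median of 0.24, against 8.82% and 7.20% of all tested genes. VLDLR, a lipoprotein receptor, read 8.12, 7.97 and 7.95 in B21 against 6.61, 6.93 and 7.14 (lowest, median and highest wild-type array) and rose by 1.12 ± 0.08 (adjusted p = 2.11e-07), and ASNS, asparagine synthetase, rose by 0.52 ± 0.12 (adjusted p = 0.00546). The ASNS call was lost against the parental cells alone (0.40, adjusted p = 0.0760) and N4 alone (0.33, adjusted p = 0.138). ADM, the hypoxia-responsive adrenomedullin gene, rose by 0.57 ± 0.10 (adjusted p = 0.00105). In the cholesterol synthesis list HMGCS1 rose (0.33 ± 0.07) and IDI1 fell (−0.44 ± 0.09) among 11 tested, HMGCS1 at −0.02 against the parental cells alone and IDI1 at −0.26 (adjusted p = 0.135) against N8 alone. Of 15 tested ribosomal protein genes RPL8 fell (−0.18 ± 0.06) and none rose, close to the share over all genes. The RPL8 call was lost without any 1 of the B21 arrays (adjusted p = 0.107, 0.212 and 0.0572 for replicates 1, 2 and 3), without most single wild-type arrays, and after centring on neighbouring genes (−0.04, adjusted p = 0.729). Of 4 tested interferon-stimulated genes none passed in either direction.

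Chromosome 13 was not the only place where neighbouring genes differed together in B21. Among runs of 41 neighbouring tested genes, chosen after their values were seen and not tested, the run from MEX3C to SALL3 on chromosome 18 had a median of 0.29 in B21, 0.05 in A10 and 0.29 in A30. The run from KANK1 to IFT74 on chromosome 9 had a median of 0.26, with 39 of its genes higher, and stood at 0.15 in A10 and 0.25 in A30. The run from TFDP2 to SCARNA7 on chromosome 3 had a median of −0.21, with 38 of its genes lower, and stood at −0.08 in A10 and −0.28 in A30. All are medians of differences that share the same 9 wild-type arrays (log2). In the chromosome 13 run from SERTM1 to RCBTB1 the median was −0.32 in B21, 0.01 in A10 and −0.11 in A30.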
